A study of Mus musculus with 15 samples.

Results

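The 9 genes described here encode proteins that carry the T cell receptor signal from the membrane to its first enzymes: Lck, Zap70, Txk, Lat, Themis, Skap1, Ubash3a, Plcg1 and Prkcq. They were followed by ATAC-seq, a method in which the Tn5 transposase cuts where chromatin is open. CD4+ T cells of the mouse were used. They were IRF5+/+ (wild type) or IRF5-/- (knockout for interferon regulatory factor 5), and were either untreated at 0 h or activated in vitro for 72 h. At 0 h there were 4 libraries of wild-type and 3 of knockout cells; at 72 h each genotype had 4. The labels name no strain, age, sex or activating agent, and do not say which libraries came from separate mice or cultures, so p-values reflect only library-to-library spread, and that may be technical. Untreated cells were taken only at 0 h, so activation cannot be told apart from 72 h in culture.

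An accessible region is a stretch where the called peaks of the libraries overlap, counted when at least 2 of the 15 libraries had a peak there and assigned to the nearest protein-coding gene within 100 kb (mm10). Of 83743 such regions, 141 belonged to the 9 genes, and all 9 genes had regions. Prkcq had 46, Themis 22, Skap1 20, Txk 13, Plcg1 13, Lat 8, Ubash3a 8, Lck 6 and Zap70 5. Of the 141 regions, 102 lay in or across the bounds of their gene, 38 had a peak in all 15 libraries, and 112 overlapped the authors' final peak list of at least 1 condition. Depth was 20.5 M to 29.0 M fragments per library after filtering, with 29994 to 69086 peaks. The library with the fewest peaks, knockout replicate 3 at 0 h, also had the lowest peaks: its median pileup was 1.80 FPM (fragments per 1000000 fragments after filtering) over the regions called everywhere, against 3.85 to 5.07 in the other 6 untreated libraries. These are bulk libraries, in which fewer cells with an open region cannot be told apart from a less open region in every cell.

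When the receptor binds its ligand, the Src-family kinase Lck phosphorylates the receptor's signalling chains, Zap70 docks there and phosphorylates the adaptor Lat, and Lat gathers phospholipase C gamma 1 (Plcg1). The phospholipase makes diacylglycerol, which activates protein kinase C theta (Prkcq), and a second messenger that releases calcium. In mice Lck is transcribed from a distal promoter, the main one in mature T cells, and from a proximal promoter, used mostly in thymocytes.

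RefSeq (GRCm38.p6, the assembly behind mm10) listed 13 starts for 8 of the 9 genes. The 250 bases before some of these starts are shown 5′ to 3′, namely both Lck starts, Zap70, Txk and Plcg1. The start peaks of Zap70, Txk and the proximal Lck start fell relative to the library median. Those of Plcg1 and the distal Lck start fell in FPM but changed little relative to that median. The start of Ubash3a, described below, is not among those shown. Capitals mark matches on either strand to 11 motifs: CCGGAA (ETS), TGTGGT (RUNX), GGAAAA (NFAT), TGANTCA (AP-1), CTTTGA (TCF/LEF), AGATAA (the motif of GATA factors), GGGCGG (SP/KLF), TGACGTCA (CRE), the IRF motif, GGGNNTTCC (NF-kB) and CAGGTG (E-box). A match describes the letters in the window and is not a shown binding site.
Lck distal start, chr4:129573642-129573891, minus strand: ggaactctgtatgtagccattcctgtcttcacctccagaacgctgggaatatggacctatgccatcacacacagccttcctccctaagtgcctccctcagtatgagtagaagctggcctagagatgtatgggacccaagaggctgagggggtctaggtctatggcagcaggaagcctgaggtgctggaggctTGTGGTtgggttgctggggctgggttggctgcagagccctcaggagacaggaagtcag
Lck proximal start, chr4:129558373-129558622, minus strand: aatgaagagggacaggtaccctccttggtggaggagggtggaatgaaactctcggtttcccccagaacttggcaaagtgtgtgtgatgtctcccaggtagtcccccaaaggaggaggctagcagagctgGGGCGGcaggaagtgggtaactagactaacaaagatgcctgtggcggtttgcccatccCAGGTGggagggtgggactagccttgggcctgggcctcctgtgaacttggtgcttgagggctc
Zap70, chr1:36761548-36761797, plus strand: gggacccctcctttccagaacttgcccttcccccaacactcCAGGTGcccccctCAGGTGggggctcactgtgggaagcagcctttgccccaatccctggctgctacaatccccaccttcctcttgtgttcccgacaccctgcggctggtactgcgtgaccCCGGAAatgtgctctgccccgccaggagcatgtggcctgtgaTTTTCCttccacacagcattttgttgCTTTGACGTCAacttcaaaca
Txk, chr5:72752778-72753027, minus strand: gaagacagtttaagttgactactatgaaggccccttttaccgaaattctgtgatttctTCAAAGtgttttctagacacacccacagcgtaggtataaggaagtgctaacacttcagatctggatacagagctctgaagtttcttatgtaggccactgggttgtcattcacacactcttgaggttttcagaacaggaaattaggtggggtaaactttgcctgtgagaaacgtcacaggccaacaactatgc
Plcg1, chr2:160731060-160731309, plus strand: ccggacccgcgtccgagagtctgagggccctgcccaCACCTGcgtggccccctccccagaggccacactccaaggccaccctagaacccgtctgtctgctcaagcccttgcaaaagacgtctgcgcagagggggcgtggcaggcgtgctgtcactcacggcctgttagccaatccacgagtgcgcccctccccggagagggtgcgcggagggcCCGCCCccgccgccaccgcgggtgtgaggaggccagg

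The Lck windows shared no motif: the distal one held the RUNX letters, found in 14% of all 32851 windows of the same length, and the proximal one held an SP/KLF match (32.7% of windows) and an E-box (17.2%). Zap70 held 1 ETS match (12%), 1 NFAT match (20.4%), 2 E-boxes and a CRE (1.55%), whose letters overlap its TCF/LEF match (13.8%) by 3 bases. Txk held a TCF/LEF match, and Plcg1 an SP/KLF match and an E-box. None of the 13 windows held AP-1 (6.75% of all windows), IRF (2.98%) or NF-kB (4.98%) letters, and Skap1 had no listed window. Of the 5 windows shown, Txk had the lowest GC content, 42.8%, and Plcg1 the highest, 71.2%. Peak summits lay close to these starts in all 15 libraries: from −106 to −38 bases at Txk, −57 to 53 at Zap70, −89 to 12 at Plcg1 and −100 to 1 at the distal Lck start, negative numbers being upstream. At the proximal Lck start they lay farther upstream, from −339 to −170 bases.

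Activated cells were compared with untreated ones to see how accessibility at these genes changed. With activation, the 9 genes gained and lost regions, and the peaks that stayed mostly became lower. By an exact test stratified by genotype, 19 of the 141 regions (13.5%) gained and 14 (9.93%) lost their peak, against 18.4% gained and 4.65% lost over all 83743 regions. Of the gained regions, 7 (4.96% of the 141) were in all 8 activated and no untreated library. Of the lost ones, 4 (2.84% of the 141) were in all 7 untreated and no activated library. The matching shares over all regions were not counted, so these counts only describe the 9 genes. None of the 33 called regions lay within 1 kb of a gene boundary, against 9.73% of all gained and 4.83% of all lost regions. Of the 141 regions, only 11 (7.8%) lay that close, against 18.1% of all tested regions. Regions with a peak in every library cannot change in this test, and 8 of the 38 such regions lay within 1 kb of a boundary. That left 3 regions there that could be called, too few to show where changes lay. Of the 33 calls, 20 held whichever library was left out, and 13 ended without at least 1 library, with adjusted p rising to at most 0.113. The 9 calls with an exact adjusted p of 0.0443 each ended for 13 of the 15 libraries.

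For those 38 regions the highest pileup, the number of fragments stacked at the top of the peak, was compared in FPM with limma. Here "relative" means that each library was also centred on its own median over the 21176 regions called in all 15 libraries, because the median of all regions moved by −0.66 on the log2 scale in FPM with activation. Relative to that median, 26 of the 38 regions (68.4%) were lower at 72 h and 5 (13.2%) higher, against 39.1% lower and 34.4% higher over all 21176 regions. The median relative change was −0.58 at the 9 genes and −0.04 over all regions. In FPM, 33 were lower and 2 higher (65.4% and 8.89% over all regions), with medians of −1.21 and −0.66. Untreated and activated libraries did not overlap at 27 of the 38 regions on the relative scale (71.1%; 39.9% over all regions) and at 17 in FPM (44.7%; 12.7% over all regions). Values for single libraries are given below in FPM, in order of replicate number, which is 1 to 4 except for knockout at 0 h (1, 3 and 4), and changes are log2 differences, 72 h minus 0 h, averaged over both genotypes.

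**Figure D1:**
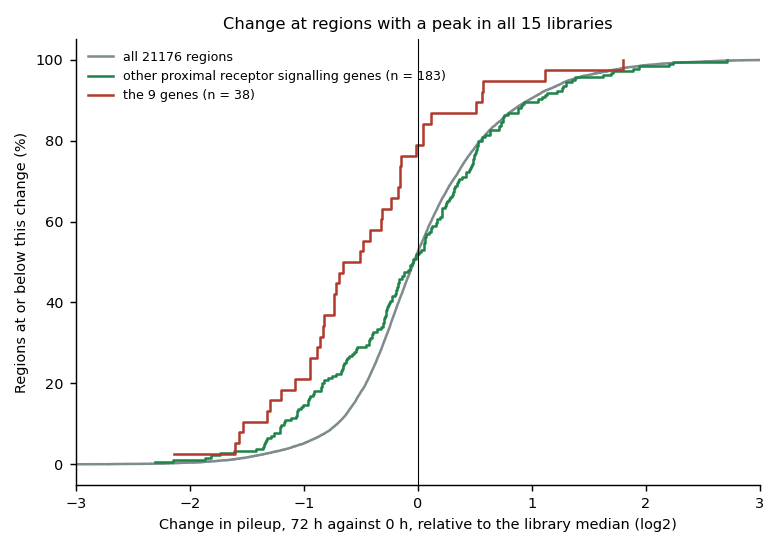
Cumulative share of regions (vertical axis, %) by the log2 change in pileup from 0 h to 72 h relative to the library median (horizontal axis), for regions with a peak in all 15 libraries. The curve of the 38 regions of the 9 genes (red) lies left of the curves of 183 regions of 39 other receptor signalling genes (green) and of all 21176 regions (grey) over most of the range, with a median of −0.58 against −0.05 and −0.04.

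The start peaks of Lck, Zap70 and Txk fell in FPM, and all but that of the distal Lck start fell relative to the library median. Lck (chromosome 4, 129548344 to 129573641) had 6 regions and neither gained nor lost one. Its proximal start region (chr4:129557990-129559140) stood at 7.45, 7.31, 6.84 and 7.24 in wild type and 6.001, 3.06 and 7.16 in knockout at 0 h. At 72 h it stood at 2.55, 2.72, 2.68 and 2.26 in wild type and 2.27, 2.74, 2.39 and 2.39 in knockout. Every untreated library was above every activated one, and knockout replicate 3 was the lowest untreated library. The relative change was −0.66 ± 0.08 (SE; limma adjusted p = 3.26e-10), and −1.28 ± 0.20 (SE; limma adjusted p = 6.56e-10) in FPM.

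At the distal Lck start (chr4:129573334-129574180) the untreated values were 3.97, 3.83, 4.73 and 4.59 in wild type and 3.88, 1.99 and 4.63 in knockout. The activated values were 1.99, 2.504, 3.33 and 2.02 in wild type and 2.09, 1.78, 1.88 and 2.199 in knockout. The times overlapped, through the low knockout replicate 3 at 0 h and the high wild-type replicates 2 and 3 at 72 h. In FPM the region fell (−0.78 ± 0.20 (SE; limma adjusted p = 0.000218)), but relative to the library median it did not pass the test (−0.16 ± 0.10 (SE; limma adjusted p = 0.134); 95% interval −0.35 to 0.04). With fold enrichment in place of pileup the change was 0.17 (limma adjusted p = 0.122) without centring and 0.41 with it. The proximal interval was −0.82 to −0.50, and the difference between the starts was not itself tested. Of the other Lck regions, chr4:129565110-129565563 and chr4:129569911-129570548 had peaks in all 7 untreated libraries and in 5 and 7 of the 8 activated ones.

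Zap70 (chromosome 1, 36761798 to 36782821), the Syk-family kinase that phosphorylates Lat, had a start region (chr1:36760984-36762476) at 6.43, 5.86, 8.41 and 6.18 in wild type and 5.26, 2.91 and 6.23 in knockout at 0 h. The activated values were 1.99, 2.65, 1.88 and 1.98 in wild type and 1.602, 2.06, 2.13 and 2.06 in knockout. No activated library reached the lowest untreated one. The relative change was −0.82 ± 0.09 (SE; limma adjusted p = 3.15e-11), similar in size to that of a region inside the gene (chr1:36766540-36767784), −0.74 ± 0.10 (SE; limma adjusted p = 2.40e-09). Zap70 also gained a region 6884 bp inside its bounds (chr1:36768682-36769283), with a peak in 8 of 8 libraries at 72 h and 0 of 7 at 0 h (exact adjusted p = 0.00399).

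Txk (chromosome 5, 72695978 to 72752992) encodes a Tec-family kinase that acts on phospholipase C gamma 1. Its start region (chr5:72752249-72753299) was the highest start peak of the 9 genes in untreated cells, at 11.9, 12.9998, 14.6 and 16.3 in wild type and 12.8, 5.81 and 15.2 in knockout. Activated libraries had 4.09, 2.69, 4.403 and 2.68 in wild type and 2.27, 3.39, 3.12 and 3.27 in knockout. All were below the lowest untreated library. On the relative scale it changed by −1.30 ± 0.08 (SE; limma adjusted p = 1.65e-19), 0.405-fold, and 0.263-fold in FPM.

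While the Txk start peak fell, regions inside the gene were gained. The regions chr5:72709432-72710222 and chr5:72723456-72723989 had a peak in every activated library and in no untreated one (exact adjusted p = 0.00399 each). A further 3 regions (chr5:72725309-72725854, chr5:72735995-72736556 and chr5:72748866-72749247) had peaks in 6 of 8 activated, 3 of each genotype, and 0 of 7 untreated libraries (exact adjusted p = 0.0443 each). Of these, chr5:72735995-72736556 ended 46 bp downstream of a second RefSeq start of Txk at 72736602. A single region, chr5:72720362-72721436, was lost, with peaks in 6 of 7 untreated and 0 of 8 activated libraries (exact adjusted p = 0.0121).

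**Figure D2:**
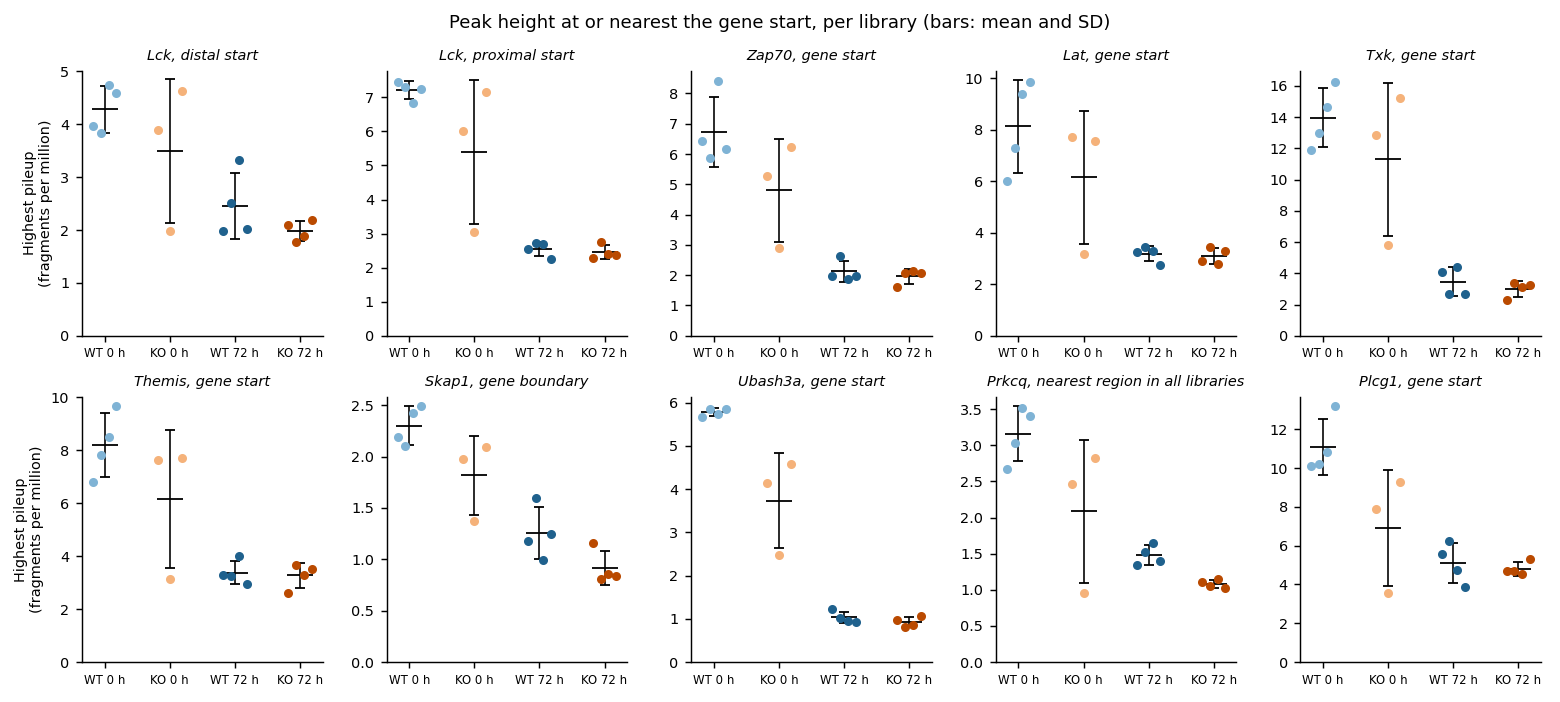
Highest pileup in FPM (vertical axis, from 0, scaled per panel) at or nearest the start of each gene, with 1 point per library, and the mean and SD of each group (n = 3 for knockout at 0 h, otherwise 4). Txk fell from between 5.81 and 16.3 at 0 h to between 2.27 and 4.40 at 72 h, and the times do not overlap at the proximal Lck start, Zap70 and Ubash3a either. They overlap in the other 6 panels, which are the distal Lck start, Lat, Themis, Skap1, Plcg1 and Prkcq (the nearest region with a peak in all libraries); the low untreated knockout point in each panel is replicate 3.

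Among the adaptor genes, Lat fell at its start and rose outside the gene. Lat (chromosome 7, 126363827 to 126369705) encodes the membrane scaffold on which the phospholipase is assembled. Its start region (chr7:126368830-126370021) stood at 6.02, 7.28, 9.39 and 9.86 in wild type and 7.73, 3.18 and 7.55 in knockout at 0 h, and at 3.24, 3.45, 3.29 and 2.76 and 2.89, 3.43, 2.77 and 3.27 at 72 h. In FPM, knockout replicate 3 at 0 h fell among the activated libraries. The relative change was −0.49 ± 0.07 (SE; limma adjusted p = 9.48e-08), with no overlap on that scale.

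The region chr7:126356873-126358818, 5009 bp outside the Lat bounds, moved the other way. It stood at 1.34, 1.83, 1.82 and 1.46 in wild type and 1.31, 0.536 and 1.41 in knockout at 0 h. At 72 h it stood at 3.45, 2.98, 3.71 and 2.68 in wild type and 2.58, 2.66, 2.73 and 2.34 in knockout. Every activated library was above every untreated one. The rise was 1.18 ± 0.20 (SE; limma adjusted p = 3.18e-08) in FPM and 1.80 ± 0.11 (SE; limma adjusted p = 2.72e-20) relative to the median, the largest increase among the 38 regions. A second outer region (chr7:126339296-126341169) was higher only on the relative scale (0.51 ± 0.10 (SE; limma adjusted p = 3.04e-05); −0.12 in FPM). Its change was 0.033 with centred fold enrichment in place of pileup. Without knockout replicate 3 at 0 h it was lower in FPM (−0.34, limma adjusted p = 0.0173). Between these outer regions, chr7:126348521-126349234 was gained in 8 of 8 libraries from 0 of 7, and beyond them chr7:126329885-126330536, 33291 bp away, was lost from 7 of 7 to 0 of 8 (exact adjusted p = 0.00399 each).

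Themis (chromosome 10, 28668360 to 28883820) encodes an adaptor needed for thymocyte selection. Its start region (chr10:28668022-28669522) had 6.78, 7.83, 8.495 and 9.66 in wild type and 7.63, 3.14 and 7.696 in knockout at 0 h, and 3.28, 3.27, 4.02 and 2.96 and 2.63, 3.67, 3.29 and 3.51 at 72 h. Knockout replicate 3 at 0 h again lay among the activated values in FPM. The relative fall was −0.42 ± 0.07 (SE; limma adjusted p = 1.80e-06). The other Themis region with a peak in every library (chr10:28694687-28696148) was at 0.04 relative to the median and did not pass the test there. Inside the gene, 2 regions were lost (chr10:28673848-28674335, 5 of 7 to 0 of 8 libraries, and chr10:28730093-28730585, 7 of 7 to 2 of 8) and 1 was gained (chr10:28736073-28736468, 0 of 7 to 6 of 8), each with an exact adjusted p of 0.0443.

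Skap1 (chromosome 11, 96464570 to 96759622), whose product links receptor signalling to integrin adhesion, lost 4 regions and gained 1, and its 4 regions with a peak everywhere were all lower relative to the median. The deepest fall among the 38 regions was at chr11:96441345-96442086, 22484 bp outside the gene. Untreated libraries had 6.87, 8.69, 11.2 and 9.86 in wild type and 7.802, 3.52 and 8.77 in knockout there, and activated ones 1.26, 1.49, 1.15 and 0.933 and 0.712, 1.13, 1.02 and 1.36. The lowest untreated library, 3.52, was above the highest activated one, 1.49. The relative change was −2.14 ± 0.10 (SE; limma adjusted p = 4.70e-24), which is 0.227-fold, and 0.148-fold in FPM.

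The peak at the Skap1 boundary was small and changed less. At chr11:96463962-96464992 it had 2.19, 2.103, 2.43 and 2.49 in wild type and 1.98, 1.38 and 2.09 in knockout at 0 h, and 1.18, 1.597, 0.995 and 1.24 and 1.16, 0.807, 0.854 and 0.842 at 72 h. The times overlapped, and the relative change was −0.32 ± 0.13 (SE; limma adjusted p = 0.0293). With fold enrichment in place of pileup the change was 0.04 (limma adjusted p = 0.713) without centring. With centred fold enrichment it passed in the opposite direction (0.28, limma adjusted p = 0.0464). The lost regions were chr11:96475903-96476424 (7 of 7 to 0 of 8 libraries, exact adjusted p = 0.00399), chr11:96696867-96697414 (6 to 0), chr11:96468302-96468961 (6 to 1) and chr11:96666727-96667397 (7 to 2). The gained one, chr11:96679114-96679820, had peaks in 8 of 8 activated and 0 of 7 untreated libraries.

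Ubash3a (chromosome 17, 31207868 to 31259681), which encodes a suppressor of receptor signalling, had the deepest fall at a start. Its start region (chr17:31207411-31208288) held 5.67, 5.86, 5.74 and 5.86 in wild type and 4.13, 2.49 and 4.58 in knockout at 0 h. At 72 h it held 1.22, 1.02, 0.957 and 0.933 in wild type and 0.979, 0.807, 0.854 and 1.08 in knockout. The wild-type untreated libraries differed little among themselves, and no activated library came near any untreated one. Relative to the median it changed by −1.61 ± 0.11 (SE; limma adjusted p = 5.77e-18), or 0.328-fold.

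A region 15187 bp inside Ubash3a (chr17:31223055-31224979) stood at 2.499, 3.69, 3.92 and 4.79 in wild type and 3.53, 1.72 and 3.702 in knockout at 0 h, and at 3.57, 3.52, 4.36 and 3.58 and 2.85, 2.38, 2.52 and 2.34 at 72 h. The values overlap in FPM (−0.06 ± 0.20 (SE; limma adjusted p = 0.787)), and relative to the median the region was higher (0.56 ± 0.09 (SE; limma adjusted p = 4.84e-07)). With centred fold enrichment in place of pileup the region did not pass (0.036, limma adjusted p = 0.768). Next to it, chr17:31220120-31220575 was gained in 7 of 8 activated from 0 of 7 untreated libraries (exact adjusted p = 0.0121). The region 1425 bp outside the gene (chr17:31205473-31206443) did not pass the relative test (0.11 ± 0.14 (SE; limma adjusted p = 0.499)).

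Plcg1 (chromosome 2, 160731310 to 160775760) encodes the phospholipase, and its start peak fell by little relative to the median. Its start region (chr2:160730799-160732050) had 10.1, 10.2, 10.8 and 13.2 in wild type and 7.87, 3.56 and 9.303 in knockout at 0 h, and 5.55, 6.24, 4.75 and 3.85 and 4.67, 4.68, 4.52 and 5.33 at 72 h. In FPM the region fell (−0.77 ± 0.19 (SE; limma adjusted p = 0.000118)). Wild-type libraries were higher at 0 h without overlap, and knockout replicate 3 at 0 h lay below every activated library. The relative change was −0.15 ± 0.07 (SE; limma adjusted p = 0.0394), with −0.36 in wild type and 0.05 in knockout. That difference did not pass the interaction test (0.41 ± 0.13 (SE; limma adjusted p = 0.357); 95% interval 0.14 to 0.68). A region 2731 bp inside (chr2:160734041-160735266) was higher on the relative scale (0.57 ± 0.08 (SE; limma adjusted p = 1.48e-08); −0.05 in FPM) and one 18263 bp inside (chr2:160756473-160757497) lower (−0.51 ± 0.07 (SE; limma adjusted p = 2.81e-08)). Plcg1 gained chr2:160746448-160747092 (2 of 7 to 8 of 8 libraries, exact adjusted p = 0.0443) and lost chr2:160740734-160741436 (7 of 7 to 2 of 8, exact adjusted p = 0.0308).

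Prkcq (chromosome 2, 11171905 to 11301226), whose product carries the signal towards NF-κB, held 46 of the 141 regions, 23 of them outside the gene. It gained 8 regions and lost 5, and of its 15 regions with a peak everywhere 11 were lower and 1 higher relative to the median. Its start region (chr2:11171853-11172591) lacked a peak only in knockout replicate 3 at 72 h and so was not fitted. Where called it had 2.01, 2.76, 2.43 and 2.61 in wild type and 1.55, 0.803 and 1.70 in knockout at 0 h, and 1.42, 1.67, 1.302 and 1.52 in wild type and 1.02, 1.09 and 0.795 in knockout replicates 1, 2 and 4 at 72 h. The times did not overlap in wild type, and in knockout they overlapped through replicate 3 at 0 h. The next region inward (chr2:11173146-11174357) fell by a modest amount relative to the median (−0.32 ± 0.11 (SE; limma adjusted p = 0.00751)).

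The deepest falls at Prkcq lay within the gene, at chr2:11202868-11205027 and chr2:11218101-11218669. The first had 7.94, 8.76, 9.47 and 9.06 in wild type and 7.696, 3.56 and 8.57 in knockout at 0 h, and 1.95, 2.03, 2.11 and 1.13 and 1.51, 1.86, 1.24 and 1.36 at 72 h, a relative change of −1.58 ± 0.09 (SE; limma adjusted p = 2.43e-20). The other had 7.72, 8.9998, 10.3 and 8.99 in wild type and 9.21, 4.55 and 9.4003 in knockout at 0 h, and 1.82, 2.47, 2.53 and 2.06 and 1.47, 1.41, 1.49 and 1.59 at 72 h, a relative change of −1.54 ± 0.08 (SE; limma adjusted p = 2.42e-22). At both regions every untreated library was above every activated one. In the same gene, chr2:11266335-11267229 rose, from 1.96, 2.55, 2.18 and 2.22 in wild type and 2.01, 1.07 and 2.09 in knockout to 2.96, 2.903, 3.75 and 2.61 and 2.18, 2.83, 2.56 and 2.11. Its relative change was 1.11 ± 0.10 (SE; limma adjusted p = 1.21e-13) without overlap. In FPM it was 0.49 ± 0.20 (SE; limma adjusted p = 0.0215), a call that ended without wild-type replicate 3 (limma adjusted p = 0.0572) or knockout replicate 2 (0.0514) at 72 h.

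At Prkcq, gains and losses both lay before and in the gene, and the 3 called regions after it were gains. Before it, chr2:11118469-11119223 (7 of 7 to 0 of 8 libraries), chr2:11135696-11136578 (7 to 1) and chr2:11159648-11160085 (7 to 1) were lost, and chr2:11146578-11147251 (0 of 7 to 8 of 8), chr2:11141830-11142402 and chr2:11142775-11143241 (0 to 6 each) were gained. Both of the last had peaks in 4 wild-type but 2 knockout activated libraries. Within the gene, chr2:11210246-11210882 was gained (0 to 6) next to chr2:11211856-11212449, which was lost (7 to 1). Also within it, chr2:11239163-11240056 was lost (7 to 0) and chr2:11282666-11283691 gained (0 to 8). After it, chr2:11312511-11313477 and chr2:11315758-11316016 (0 to 7 each) and chr2:11355592-11356110 (1 to 8) were gained. The exact adjusted p of these calls was 0.00399 to 0.0443.

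**Figure D3:**
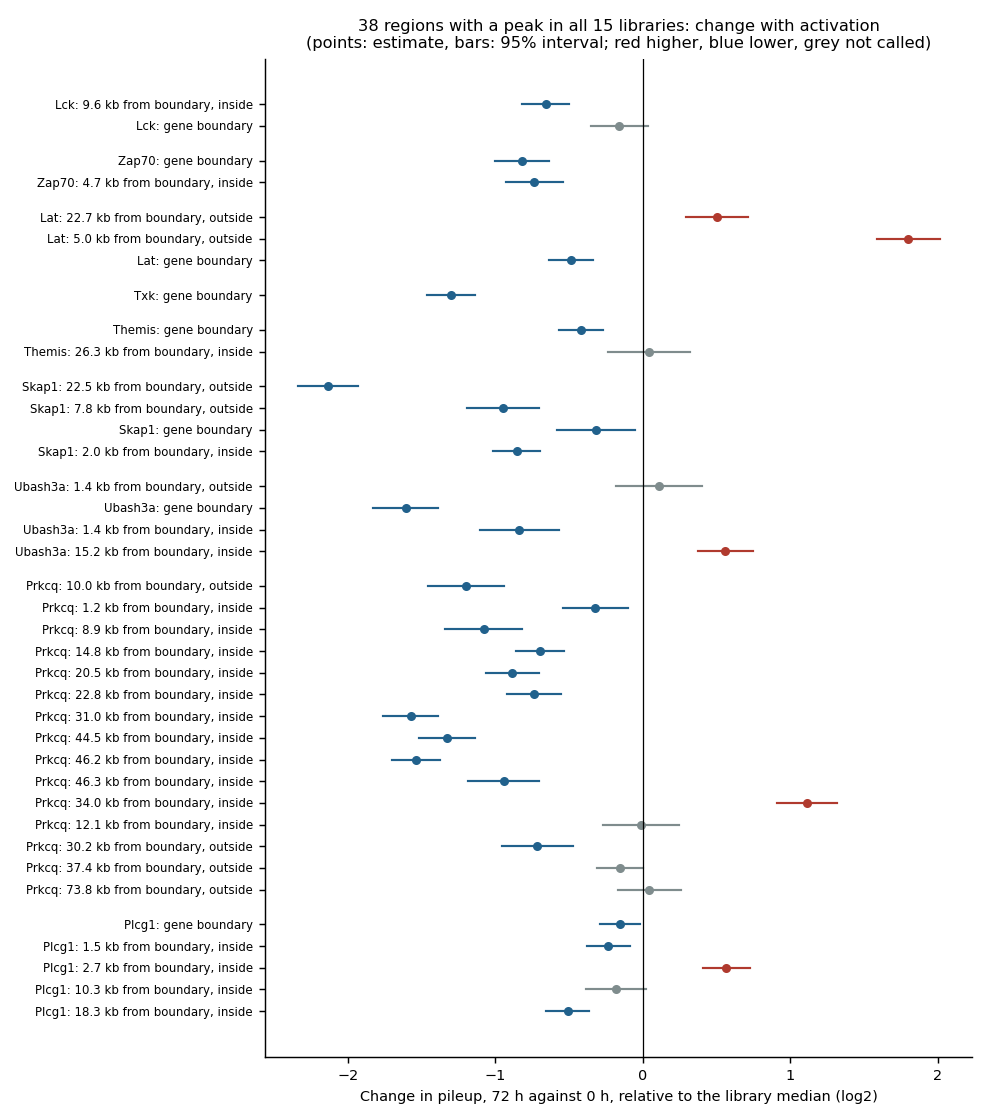
Log2 change in pileup from 0 h to 72 h relative to the library median (horizontal axis) for each of the 38 regions with a peak in all 15 libraries, as the limma estimate with its 95% interval, by gene and position. Of the 38 regions, 26 are lower (blue) and 5 higher (red), the latter at Lat (2), Ubash3a, Prkcq and Plcg1.

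Counting regions with a peak per gene and library gave a different picture from peak height. Prkcq had 27, 30, 30 and 29 in wild type and 28, 25 and 25 in knockout at 0 h, and 37, 34, 36 and 31 in wild type and 29, 26, 28 and 30 in knockout at 72 h. Txk had 4, 6, 6 and 6 in wild type and 6, 3 and 6 in knockout at 0 h, and 10, 10, 11 and 8 in wild type and 8, 9, 9 and 6 in knockout at 72 h. Zap70 had 3 in every untreated library except knockout replicate 3, which had 2, and 4 or 5 in every activated one. In wild type the times did not overlap for any of these 3 genes. In knockout Zap70 did not overlap either, while Prkcq and Txk did.

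Those 3 genes rose in the exact permutation test over 2450 arrangements within genotype, against 37.7% of all 16659 genes higher and 3.76% lower. The difference was 3.88 regions for Prkcq (exact adjusted p = 0.0164), 3.63 for Txk (0.00666) and 1.54 for Zap70 (0.00238). The direction did not hold with an equal number of strongest peaks in every library, a setting that also drops weak peaks. The differences were then −10.25 for Prkcq (exact adjusted p = 0.00260), −0.25 for Txk (0.965) and −0.96 for Zap70 (0.0782). Skap1 went from 12, 13, 12 and 13 in wild type and 11, 7 and 9 in knockout to 9, 11, 8 and 9 and 11, 8, 7 and 7, and its difference of −2.0 did not pass (exact p = 0.0396, adjusted p = 0.0849). It passed without knockout replicate 3 at 0 h (exact adjusted p = 0.0475) or knockout replicate 1 at 72 h (0.0223), as did Plcg1, upward, without knockout replicate 1 at 0 h (0.0499). The differences for Themis (1.63), Plcg1 (0.92), Ubash3a (0.54), Lat (0.29) and Lck (0.00) had exact adjusted p of 0.130 or more. Divided by the share of all tested regions called in the library, 7 of the 9 genes were lower and none higher, against 37.5% of all genes lower and 26.3% higher. The differences in this ratio ran from −0.48 for Skap1 to −0.17 for Themis among those called, and Txk (0.16, exact adjusted p = 0.0528) and Zap70 (0.09, 0.159) did not pass. The plain counts also depended on distance. With only regions within 20 kb of a gene, the rise of Prkcq did not pass (0.875, exact adjusted p = 0.348). Lat then passed upward (1.29, exact adjusted p = 0.0425) and Skap1 downward (−3.125, 0.0166).

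**Figure D4:**
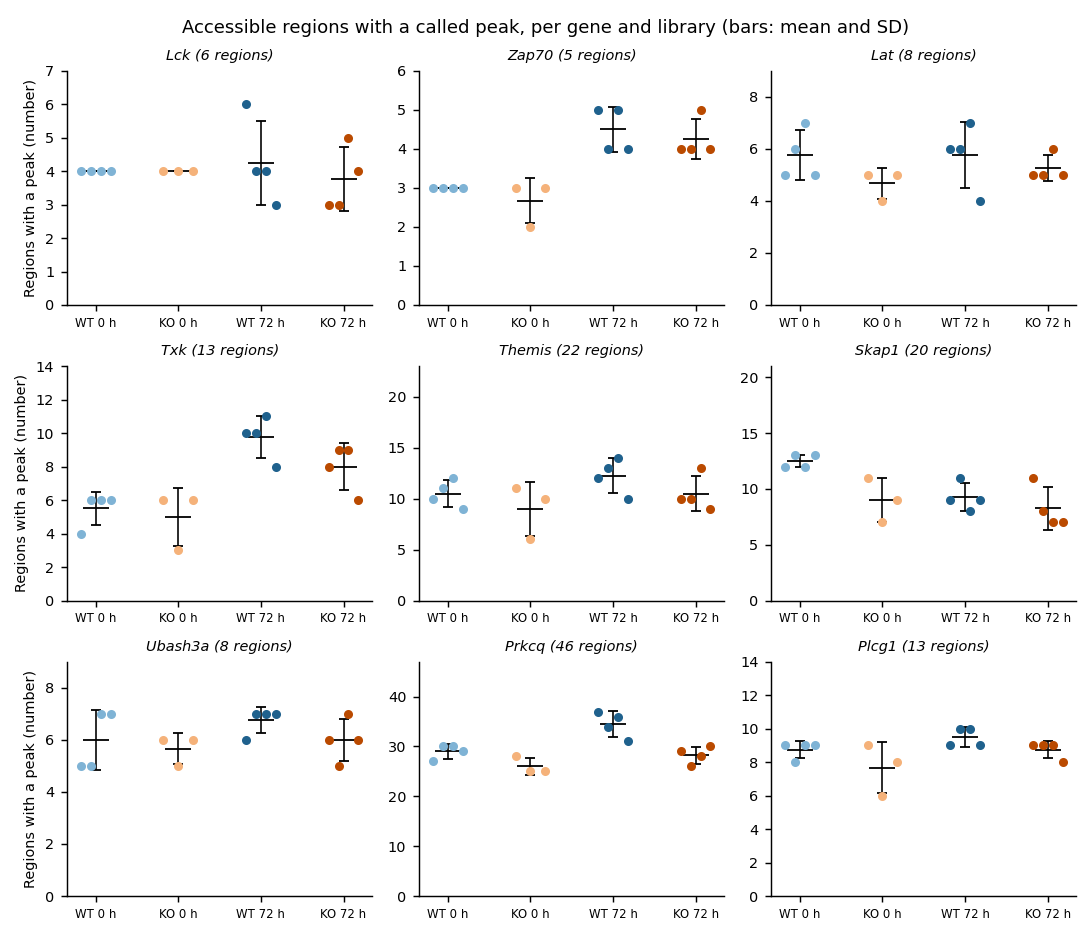
Number of regions with a called peak (vertical axis, from 0) in each library for the 9 genes, by genotype and time, with the mean and SD of each group (n = 3 for knockout at 0 h, otherwise 4). Every activated library has more regions than every untreated one at Zap70, and within wild type the same holds at Txk and Prkcq, while activated wild-type libraries have fewer at Skap1.

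The comparison of knockout with wild type asked whether loss of IRF5 altered these genes. By the exact test stratified by time no region was called, at the 9 genes or anywhere (0.0%). At an unadjusted exact p under 0.05 there was 1 of 141 regions (0.709%), against 1168 of 83743 (1.39%). That region, chr2:11238158-11238541 in Prkcq, had a peak in 4 of 4 wild-type libraries at 0 h, 2 of 4 at 72 h and 0 of 7 knockout libraries (exact p = 0.00612, adjusted p = 1). In the count of regions per gene, again no gene was called (0.0%), and 1507 of 16659 genes (9.05%) had an unadjusted p under 0.05, Prkcq and Skap1 among them. Knockout libraries had 4.63 fewer Prkcq regions (exact p = 0.00163, adjusted p = 0.470) and 2.25 fewer Skap1 regions (exact p = 0.0176, adjusted p = 0.472). Knockout libraries had fewer called regions in general, on average 43.8% of all tested regions against 51.8% at 0 h and 64.8% against 71.9% at 72 h, and as a ratio to that share the difference was 0.0073 for Prkcq (exact adjusted p = 1) and −0.092 for Skap1 (exact adjusted p = 0.434).

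For pileup in FPM, limma called 0 of the 21176 regions by genotype at 0 h, at 72 h or in the interaction (0.0% each), with 13, 5 and 2 of the 38 regions of the 9 genes, and 7802, 1066 and 454 of all regions, at an unadjusted p under 0.05. That count of 0 rests on the knockout libraries at 0 h: without replicate 3, limma called 5 of the 38 (1051 of all) lower in knockout at 72 h, and without replicate 4 it called 30 of the 38 (17259 of all) lower at 0 h. Relative to the library median, limma called none of the 38 at 0 h (7 higher and 0 lower over all regions, 0.0331% and 0.0%) and none in the interaction (0 higher and 1 lower, 0.0% and 0.00472%). At 72 h it called 2, both lower in knockout and both in Prkcq, against 0.94% of all regions higher and 0.264% lower. At chr2:11180855-11182350 the activated libraries had 1.62, 1.89, 1.34 and 1.3998 in wild type and 1.16, 0.928, 0.683 and 0.515 in knockout, a relative difference of −0.75 ± 0.18 (SE; limma adjusted p = 0.0250). At chr2:11194750-11195562 they had 2.35, 2.83, 2.79 and 1.79 in wild type and 1.42, 1.25, 1.54 and 1.497 in knockout, a relative difference of −0.52 ± 0.12 (SE; limma adjusted p = 0.0272). The genotypes did not overlap at either region at 72 h, and neither was called in FPM (limma adjusted p = 0.649 and 0.812). With centred fold enrichment in place of centred pileup, neither passed. The differences were then −0.46 (limma adjusted p = 0.281) and −0.16 (0.648). Both relative calls ended without wild-type replicate 2 (limma adjusted p = 0.112 and 0.116) or knockout replicate 4 (0.152 and 0.0595). The first also ended without wild-type replicate 4 (0.0616) or knockout replicate 3 (0.0759), and the second without wild-type replicate 3 (0.0610) or knockout replicate 2 (0.142).

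The change was also read for each genotype as a contrast of the same limma fit, in which all groups share the estimate of the spread. Relative to the median, limma called 25 of the 38 regions lower and 5 higher in wild type and 23 lower and 5 higher in knockout. Over all 21176 regions, 33.3% were lower and 29.8% higher in wild type, and 32.9% and 29.3% in knockout. The median change was −0.56 in wild type and −0.55 in knockout at the 9 genes, and −0.03 and −0.04 over all regions. The change at the Skap1 region chr11:96441345-96442086 was −2.15 in wild type and −2.13 in knockout, with an interaction of 0.02 (95% interval −0.39 to 0.43). At the Ubash3a start it was −1.72 and −1.50 (interaction interval −0.23 to 0.67), and at the Txk start −1.26 and −1.34 (−0.41 to 0.25). No interaction at the 9 genes passed the test, which does not show that the genotypes changed alike.

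A wider list of 39 genes of the same pathway, including further adaptors, kinases and phosphatases, all had regions, 612 in total. Of these, 59 (9.64%) were gained and 54 (8.82%) lost. The shares were 13.5% and 9.93% at the 9 genes, and 18.4% and 4.65% over all regions. Itpr1, a calcium release channel, gained 8 and lost 3 of 57 regions. Ubash3b, the relative of Ubash3a, gained 3 and lost 7 of 34, Cblb, a ubiquitin ligase that restrains T cell activation, gained 3 and lost 6 of 49, and Fyn, the other main Src-family kinase of the pathway, gained 5 and lost 4 of 46. Grap2, an adaptor that binds Lcp2, gained 2 and lost 5 of 20. Of 13 fitted regions of Rasgrp1, the diacylglycerol-dependent activator of Ras, 9 were higher and 3 lower relative to the median, and it gained 4 and lost 3 of 31 regions. Over the list, 66 of 183 fitted regions (36.1%) were higher and 81 (44.3%) lower, against 34.4% and 39.1% over all regions. The median was −0.05, against −0.58 for the 9 genes and −0.04 over all regions.

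The numbers of regions per library followed those of other genes. Across the 15 libraries, the number of regions of the 9 genes with a peak had its highest Pearson correlations, among 5456 genes with at least 5 regions, with Cdk6 (0.94), Cxcr5 (0.93), Scaf8 (0.92), Gse1 (0.92) and Reep3 (0.92). The points share each library's peak number, and the correlation is a description.

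Markers of cell types were followed beside the 9 genes. Over all regions 18.4% were gained and 4.65% lost. Of 91 regions of 8 CD4 T cell markers, 11 were gained and 11 lost (12.1% each). Relative to the library median, 3 of their 23 fitted regions (13%) were higher and 11 (47.8%) lower, against 34.4% and 39.1% over all regions. Their median change was −0.23, against −0.58 at the 9 genes. Their summed pileup in FPM was 202 to 276 in wild type and 91.0 to 220 in knockout libraries at 0 h, and 98.9 to 141 and 81.8 to 93.0 at 72 h. Sums in FPM also carry the shift of all fitted regions, whose median moved by −0.66 on the log2 scale with activation. Cd4, Cd3e, Cd3d and Cd3g had peaks in all 15 libraries. So did Pax5, Ebf1 and Blnk of the B cell list, and Itgam and Spi1 of the myeloid list. Cd8b1, Klrb1c, Klrd1 and Eomes of the CD8 and NK list did too, so this trait did not set the T cell markers apart. Among B cell markers, Ms4a1, Cd79a and Cd79b had no region. The 28 regions of 5 others, 13 of them at Ebf1, gained 6 (21.4%, near the 18.4% of all regions) and lost none. Their summed pileup was 10.6 to 13.4 and 3.18 to 10.4 at 0 h, and 21.5 to 26.8 and 15.6 to 18.2 at 72 h, in wild type and knockout. Of 27 myeloid regions 4 were gained and 4 lost, 14.8% each (sums of 12 to 24.7 and 4.51 to 17.8 at 0 h, and 12.1 to 17.2 and 10.9 to 12.6 at 72 h). Of 42 CD8 and NK regions 5 (11.9%) were gained and 3 (7.14%) lost (sums of 47.6 to 61.2 and 18.6 to 53.7, and 29.0 to 38.5 and 26.3 to 31.9). Relative to the median, 3 of 3 fitted B cell, 1 of 2 myeloid and 3 of 6 CD8 and NK regions were higher. Lower ones numbered 0, 0 and 2, against 34.4% higher and 39.1% lower over all regions. What part these shifts had in the changes at the 9 genes was not tested.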

How the data were processed

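The authors deposited MACS2 peak lists for 15 libraries, 4 merged lists and 4 final lists. Per the submitters' processing notes, Trim Galore 0.5.0 trimmed the reads, Bowtie2 2.2.9 was the aligner and mm10 the build, and HOMER 4.10.4 was also used. MACS2 2.1.1.20160309 took read pairs, used no control, kept 1 fragment per position and called peaks at a q value of 0.05, per the file headers. The pileup the authors deposited is the coverage signal at the summit, in whole fragments. Their deposited fold enrichment is a ratio to local background. The deposited −log10 q served only to filter or rank peaks within a list, and the deposited −log10 p was not used. Wild-type library 4 came at both times from an alignment numbered 5, per the file headers. Whether read ends were shifted for the transposase is not stated.

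Library lists were merged at 1 bp overlap. The highest pileup in a region was divided by the library's fragments after filtering and multiplied by 1000000 (FPM). Presence was tested by a two-sided exact conditional test within strata. Pileup was tested by limma 3.58.1 on log2 FPM with no pseudocount, over the regions called in all 15 libraries. Regions per gene were tested by two-sided exact permutation within strata. Adjustment was by Benjamini-Hochberg over all features, at 0.05. The lowest peaks held 0.318 to 0.402 FPM, so a lacking peak does not show closed chromatin. Python 3.11.15, pandas 2.3.3, scipy 1.17.1 and R 4.3.3 were used, and the tests were checked on simulated data. Gene bounds and promoters came from RefSeq tables of GRCm38.p6.

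Regions were named by rule: at or nearest the start, all with a presence call, up to 3 more per gene with the highest mean pileup, and up to 4 per gene called in the pileup test by adjusted p. From the pathway list the 5 genes with most called regions were named, with a tie for the last place. The members and lists were chosen with earlier results of these data known. Alternatives changed the peaks used, the libraries, overlap and distance a region needs, scaling, fold enrichment, the regions fitted, the trend and the replicate block, and left out each library. Centring combined with another choice was added after the data were seen. One marker gene of the lists is not reported here.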

Additional observations from a re-analysis of the deposited data

Results flagged for a closer look

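In 49 groups of 4 libraries with any spread, the number of regions with a peak per gene and the pileup at the gene boundary were searched for a library far from the other 3. There were 9 such values. Chance gives about 1 in 20 groups for continuous values, but 6 of the 9 are whole-number counts in which the other 3 libraries tie, so that any single differing library stands out and that rate does not apply. Counts of regions differed from the shared value of the other 3 libraries as follows. Txk had 4 regions with a peak in wild-type replicate 1 at 0 h, against 6. Plcg1 had 8 in wild-type replicate 2 at 0 h and 8 in knockout replicate 4 at 72 h, against 9. Ubash3a had 6 in wild-type replicate 1 at 72 h, against 7. Knockout replicate 3 at 72 h had 5 regions of Zap70, against 4, and 6 of Lat, against 5.

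The remaining values are pileup in FPM (fragments per 1000000) at 72 h. At the Zap70 start, wild-type replicate 2 had 2.65, against 1.88 to 1.99, and knockout replicate 1 had 1.60, against 2.06 to 2.13. At the Skap1 boundary, knockout replicate 1 had 1.16, against 0.807 to 0.854.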

How the results depend on the processing

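Gains and losses of peaks depended on how many peaks each library contributed. With an equal number of strongest peaks (29994 per library), the 9 genes gained 9 regions and lost 22, and all regions 6629 and 6335, in place of 19, 14, 15380 and 3895. With −log10 q of 5 or more, 12 regions of the 9 genes were gained and 17 lost (12384 and 4379 of all). Where a peak had to cover 0.5 of the region, 13 regions of the 9 genes were gained and 11 lost (8415 and 3202 of all). Leaving out 1 library gave 12 to 17 gained and 9 to 13 lost at the 9 genes, and 12271 to 14727 and 2633 to 3613 over all.

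For regions per gene, 3 of the 9 genes were higher and 0 lower. With equal peak numbers 0 were higher and 4 lower (2674 and 2270 of all genes, in place of 6283 and 626). With relative occupancy 0 were higher and 7 lower (4375 and 6252 of all genes). Within 20 kb 3 were higher and 1 lower (5650 and 619 of all genes). The higher ones were then Zap70, Txk and Lat, without Prkcq, and the lower one was Skap1. Leaving out 1 library gave 3 to 4 higher and 0 to 1 lower (5300 to 6182 and 443 to 745 of all genes). Differences that turned were, with relative occupancy (a difference of ratios), Lat −0.37, Plcg1 −0.30, Prkcq −0.28, Themis −0.17 and Ubash3a −0.38, and with equal peak numbers Lat −0.46, Prkcq −10.25, Themis −0.38, Txk −0.25, Ubash3a −2.83 and Zap70 −0.96. Between genotypes, where no gene was called, they were with equal peak numbers Lat 0.21, Plcg1 0.083 and Themis 0.63, with relative occupancy Lck 0.13, Plcg1 0.033, Prkcq 0.0073, Ubash3a 0.091 and Zap70 0.057, and Lck 0.083 without wild-type replicate 1 at 72 h.

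For pileup, 2 regions of the 9 genes were higher and 33 lower in FPM (1883 and 13852 of all). Centred on the library median they were 5 and 26 (7289 and 8278 of all), and centred with fold enrichment 7 and 17 (5068 and 4851). With regions called in 2 or more libraries of every group, 57 regions of the 9 genes were fitted. Of these 7 were higher and 44 lower (3947 and 17378 of 30003), and centred 13 and 30 (12721 and 9682). With −log10 q of 5 or more, 30 were fitted, of which 1 was higher and 26 lower (1291 and 12924 of 18887). Leaving out 1 library gave 1 to 2 higher and 32 to 34 lower (1689 to 2302 and 12423 to 16755 of all), and centred 5 higher and 24 to 27 lower (7026 to 7249 and 7951 to 8255).

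Single regions that turned upward when centred were, by start coordinate, Themis 28694687 (0.045), Ubash3a 31205473 (0.11) and 31223055 (0.56), Prkcq 11375017 (0.043), Plcg1 160734041 (0.57) and Lat 126339296 (0.51). With fragments before filtering Ubash3a 31223055 was 0.069, Plcg1 160734041 0.076 and Lat 126339296 0.015. With fold enrichment Skap1 96463962 was 0.044, Ubash3a 31205473 0.53, Plcg1 160734041 0.27 and Lck 129573334 0.17. With centred fold enrichment Themis 28694687 was 0.039, Skap1 96463962 0.28, Ubash3a 31205473 0.77 and 31223055 0.036, Prkcq 11338675 0.22 and 11375017 0.12, Plcg1 160734041 0.51, Lck 129573334 0.41 and Lat 126339296 0.033. Leaving out 1 library turned 3 regions that had not passed the test in FPM: Ubash3a 31223055 (−0.24 to 0.036), Plcg1 160734041 (−0.21 to 0.036) and Lat 126339296 (−0.34 to 0.058). The cause was not tested.

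Genotype counts were 0 in FPM. Over all regions at 0 h, centring gave 7 higher, fold enrichment 1 higher, centred fold enrichment 2 higher and 2 lower, centred regions with 2 or more peaks in every group 9 higher, and the same uncentred 1 lower. At 72 h, centring gave 199 higher and 56 lower, centred fold enrichment 1 and 13, regions with 2 or more peaks in every group 1 and 7, and the same centred 194 and 66. The 9 genes had 2 lower at 72 h when pileup was centred, with either choice of regions, but 0 with centred fold enrichment. Centred pileup gave 1 lower over all regions in the interaction. Leaving out 1 library gave, in FPM, 0 to 2 higher and 0 to 17259 lower at 0 h (0 to 30 at the 9 genes), and 0 to 18 higher and 0 to 1051 lower at 72 h (0 to 5). Centred, it gave 1 to 16 higher and 0 to 2 lower at 0 h, 18 to 513 higher and 4 to 182 lower at 72 h (0 to 1 and 0 to 3 at the 9 genes), and 1 to 2 lower in the interaction.

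The replicate number was tried as a block. Deviations of same-numbered libraries correlated from −0.17 to 0.23, so the numbers were not taken as pairing the libraries. With the block no region was gained or lost (0 at the 9 genes and 0 over all), and 0 genes had more or fewer regions (0 of the 9 and 0 of all). The smallest exact p with 7 pairs was 0.0156, and the lowest adjusted exact p at the 9 genes was 0.141 for presence and 0.0645 for regions per gene. Pileup calls at the 38 regions were the same with the block in FPM. Centred with the block, all regions were 7228 higher and 8227 lower with activation (5 of the 9 genes' regions higher), 2 higher at 0 h, 146 higher and 45 lower between genotypes at 72 h (2 of the 9 genes' regions lower) and 1 lower in the interaction.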
